A study of Mus musculus with 24 samples.

Results

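The genes described here encode the proteasome, its immune form and its helpers. They were taken as the protein-coding genes whose symbol begins with Psma, Psmb, Psmc, Psmd, Psme, Psmf or Psmg followed by a digit, together with Sem1. The rule found 51 of the 45237 genes in the table, 20685 of which are protein coding. Expression was measured by RNA-seq as raw read counts in 24 libraries of natural killer (NK) cells from the spleens of WT mice. NK cells were sorted as NKp46- or NK1.1-positive cells lacking CD3, CD5 and the T cell receptor, among other markers. The mice were female C57BL/6J, aged 7 to 9 weeks. The 4 control libraries came from untreated mice. RMA, a T cell lymphoma line that keeps MHC class I, was given intravenously and NK cells were taken at day 2 (early, 3 libraries), day 4 (intermediate, 3 libraries) and day 9 (late, 3 libraries). RMA-KR is RMA without B2m and with Rae1-β, a ligand of the activating receptor NKG2D, and is 1 clone obtained by limiting dilution. Its groups were taken at day 2 (early, 3 libraries), day 7 (intermediate, 5 libraries) and day 14 (late, 3 libraries). Both lines also carry the fluorescent protein ZsGreen. Intermediate and late groups of the tumors therefore differ in day as well as in tumor, and the contributions of the day and the tumor cannot be told apart. The study's text counts its replicates in mice, but the labels do not tie each library to a mouse, and p-values measure the spread between these libraries.

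The proteasome is the barrel-shaped protease that degrades ubiquitin-tagged proteins in the cytosol and nucleus. Its 20S core has outer rings of alpha subunits (Psma genes) and inner rings of beta subunits (Psmb genes), and only some of the beta subunits cut. In lymphocytes, and in other cells exposed to interferon-gamma, the cutting subunits β5, β1 and β2 (Psmb5, Psmb6 and Psmb7) can be replaced by β5i, β1i and β2i (Psmb8, Psmb9 and Psmb10), which makes the immunoproteasome known for producing peptides for MHC class I. The 19S cap (Psmc and most Psmd genes) recognises and unfolds substrates, while PA28αβ (Psme1 and Psme2) is an alternative, interferon-inducible activator. By role, the 51 genes comprised 7 alpha subunits, 4 noncatalytic beta subunits, 3 constitutive catalytic subunits, 3 immune catalytic subunits, 2 PA28αβ subunits and 3 other activators or inhibitors (Psme3, Psme4 and Psmf1). The cap gave 6 ATPases and 12 other subunits, and 7 genes encode assembly chaperones. Another 2 are tissue-restricted core subunits (Psma8 of the testis and Psmb11 of the thymus), and 2 were matched by name or as a near copy (Psmc3ip, a meiotic recombination factor, and Psme2b, a near copy of Psme2).

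Short stretches upstream of the start sites show the letters that regulators of this family are known to read, and they are printed for the subunits at the centre of the comparison below. RefSeq promoter windows (GRCm38.p6) were found for 43 of the 51 genes, and the 250 bases before each start were searched on both strands. The antioxidant response core TGACNNNGC of the element bound by Nrf1 and Nrf2 was present in 5 of 43 genes (11.6%), against 10.2% of all 32851 windows. The constitutive subunits Psmb5 (chr14:54618023-54618052, minus strand) and Psmb6 (chr11:70525327-70525356, plus strand) held it, and Psmb7 had no window. The interferon-gamma-activated sequence TTCNNNGAA was found in 2 of 43 genes (4.7%) against 7.0% of all windows, and Psmb8 (chr17:34198088-34198117, plus strand) was one of them. That site lies before the start used by RefSeq but inside the gene model used for the distances given below, which begins farther upstream, at position 34197721. The letters GAAA, any 2 bases and GAAA, as in the interferon-stimulated response element, were in 3 of 43 genes (7.0%) against 3.0% of all windows, none of them an immune subunit, and are shown for Psmb3 (chr11:97703261-97703290, plus strand), where they lie on the reverse strand. The box CCAAT was in 15 of 43 genes (34.9%) against 33.8% of all windows. Capitals mark the motif in each 30-base site.
Psmb5: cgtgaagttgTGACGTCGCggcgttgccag
Psmb6: acagaggcggactaaagagagTGACGGAGC
Psmb8: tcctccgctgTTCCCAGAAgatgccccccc
Psmb3: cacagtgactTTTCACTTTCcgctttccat
These matches are a description of the letters in the windows and do not show that a factor binds there. Psmb9 and Tap1, a subunit of the peptide transporter, start 226 bases apart on chromosome 17 and their gene models overlap by 212 bases. The gene model of Psmb8 begins 495 bases beyond Tap1. Psme1 and Psme2 lie 5911 bases apart on chromosome 14.

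Libraries held 5138651 to 14863500 counts, with control replicate 1 the shallowest. Cells matched their label, with the summed level of 10 NK cell genes at 21470 to 38590 CPM (counts scaled to a common library total after TMM normalisation). Genes of granulocytes, red blood cells and B cells summed to at most 55.96 CPM in any library. The 10 macrophage and monocyte genes summed to 8.85 to 18.7 CPM in control, 16.5 to 20.5 CPM in RMA intermediate, 34.2 to 52.3 CPM in RMA late and 39.6 to 80.4 CPM in RMA-KR late, so that both late groups lay above control. The 7 plasma cell genes summed to 436 to 639 CPM in control, 594 to 636 CPM in RMA intermediate, 513 to 663 CPM in RMA late and 533 to 867 CPM in RMA-KR late. The 12 T cell genes, which RMA cells could also contribute, summed to 342 to 665 CPM across all libraries, with 452 to 504 CPM in control, 342 to 378 CPM in RMA intermediate and 515 to 665 CPM in RMA late, and none of the 12 was at or below 3 counts in every library. The part of these lists in the results was not tested. For 10 immediate early and handling genes, control replicate 4 and RMA-KR intermediate replicates 3, 4 and 5 stood apart, with sums of 1050 to 1186 CPM against 3677 to 8591 CPM in all others. Among those others, the other 3 control libraries were at 6344 to 7645 CPM. RMA intermediate (4158 to 4577 CPM), RMA late (3677 to 4700 CPM) and RMA-KR late (5224 to 6264 CPM) all lay below these. Counts of called members that changed without the 4 libraries low in these genes are given both ways.

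In resting NK cells the immune catalytic subunits were abundant. Divided by the length of the longest coding transcript, the control level of Psmb8 was 229 ± 39.3 CPM per kb (SD, n = 4) and that of its counterpart Psmb5 was 55.7 ± 4.02 CPM per kb. The level of Psmb10 was 170 ± 32.7 CPM per kb and that of Psmb7 was 43.9 ± 14.7 CPM per kb. In both pairs every control library of the immune gene lay above every control library of its counterpart. The third pair was ordered otherwise, with Psmb9 at 128 ± 30.2 CPM per kb and Psmb6 at 178 ± 28.4 CPM per kb, and these ranges (90.8 to 165 and 136 to 197) overlapped. Dividing by all exonic bases of the gene instead kept Psmb8 (110) above Psmb5 (55.7), Psmb10 (131) above Psmb7 (14.9) and Psmb9 (47.4) below Psmb6 (75.9). The other 11 core subunits ran from 19.6 CPM per kb for Psma3 to 204 for Psma1, with a median of 103, and over all exonic bases from 14.3 for Psma3 to 138 for Psma6, with a median of 46.2. Among activators, Psme1 was at 239 ± 44.5 CPM per kb, above Psme2 at 62.7 ± 16.01, and the nuclear activators Psme3 and Psme4 were at 16.7 ± 9.10 and 3.84 ± 1.25. The chaperones Psmg1 to Psmg4 lay between 10.5 and 21.6 CPM per kb.

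Together the 51 genes took 0.526% to 0.649% of all counts in control, 0.569% to 0.627% in RMA early, 0.841% to 0.892% in RMA intermediate and 0.798% to 1.05% in RMA late. In the RMA-KR groups the share was 0.580% to 0.684% early, 0.714% to 0.770% intermediate and 0.650% to 0.787% late. Every RMA intermediate and RMA late library thus lay above every control library, and so did every RMA-KR intermediate and RMA-KR late library. After TMM normalisation the same held for the summed CPM of RMA intermediate, RMA late and RMA-KR intermediate. It did not hold for RMA-KR late, where replicate 3, at 6447 CPM, was below control replicates 2 and 3 (6509 and 6574 CPM). A difference over the 7 groups (edgeR quasi-likelihood F test, Benjamini-Hochberg adjusted p under 0.05) was called for 24 of the 50 members that passed the filter on low counts, against 5.69% of the 17097 genes tested. Psmb11 did not pass that filter. The smallest adjusted p values were 6.64e-04 for Psmb2, 7.10e-04 for Psme1 and 1.42e-03 for Psmb8.

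**Figure D1:**
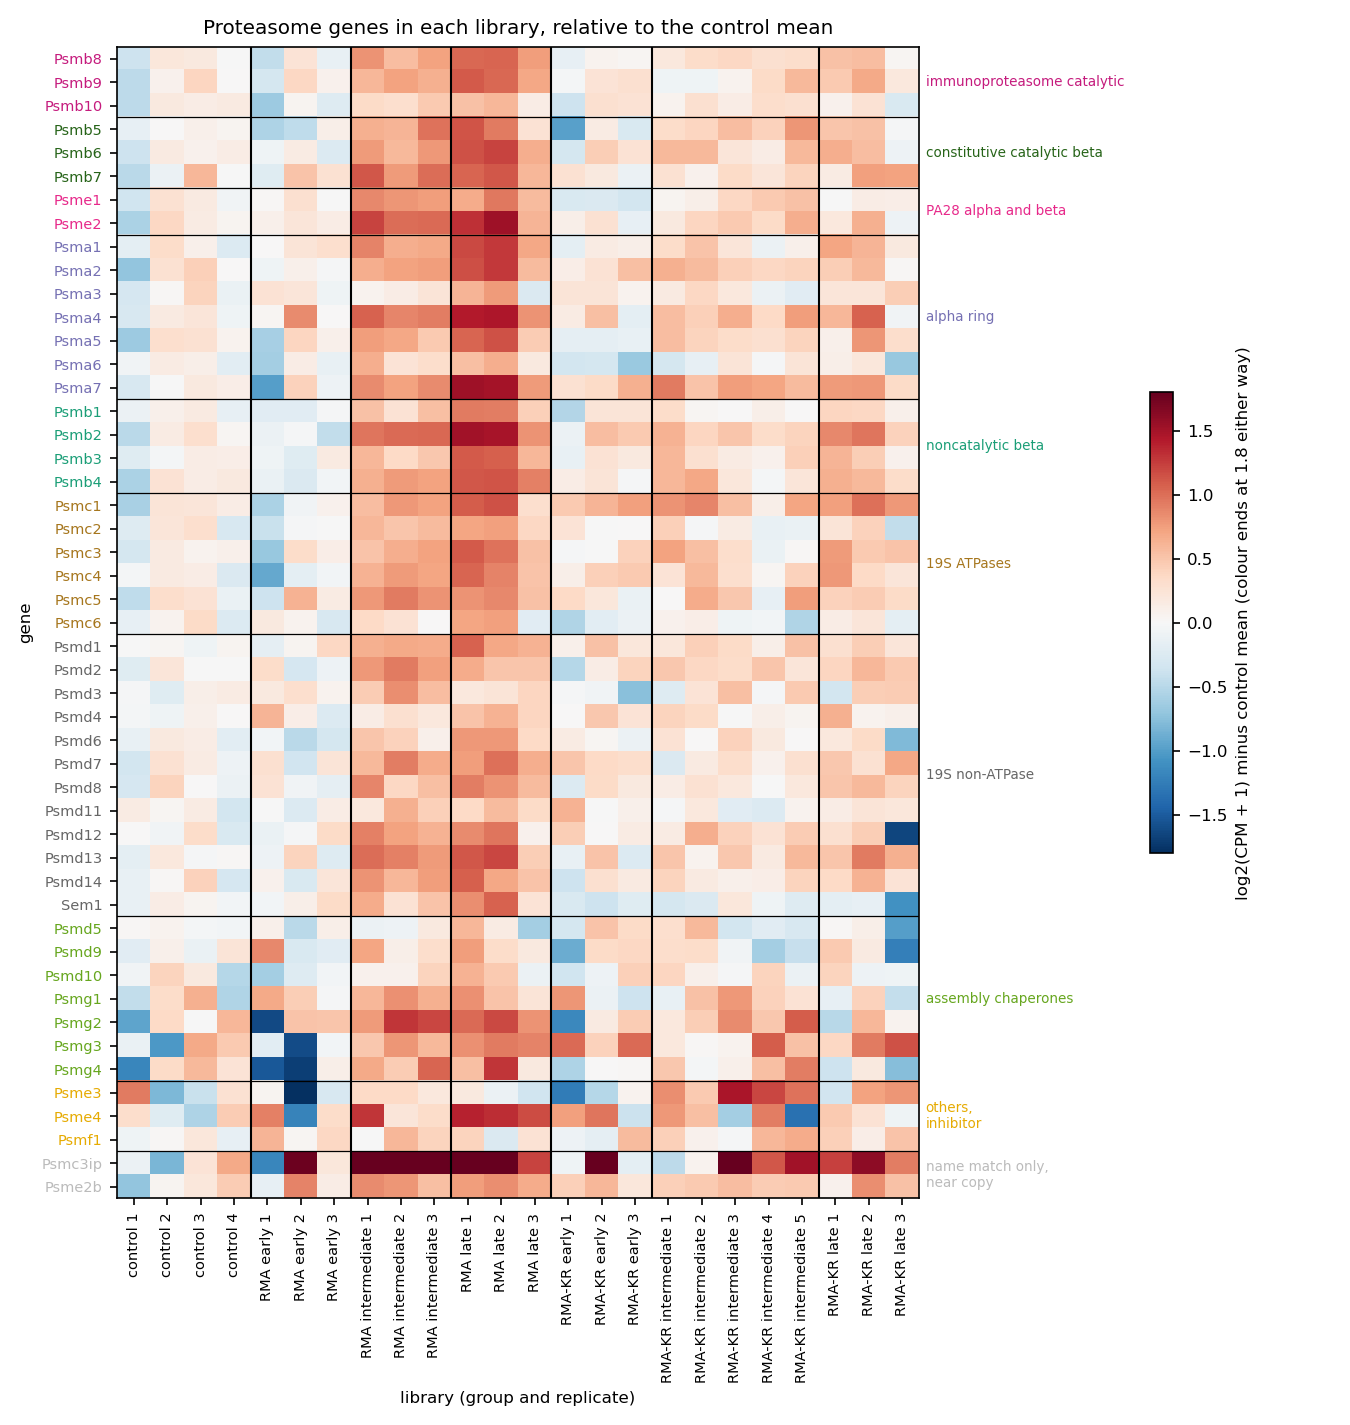
Level of 49 proteasome genes (rows, coloured by role; Psma8 and Psmb11 left out) in each of the 24 libraries (columns), as log2(CPM + 1) minus the control mean. RMA intermediate and RMA late libraries are red for most rows, and RMA late replicate 3 is paler than replicates 1 and 2.

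The first question was whether NK cells of mice carrying RMA changed their proteasome genes. At day 2 they did not detectably do so. By edgeR 0 of 50 members were called in either direction, as were 0% of all genes, 0 had an unadjusted p under 0.05 (7.04% of all genes had), DESeq2 called 0 (0.0849% of the genes it tested were called higher), and the median log2 fold change against control was -0.01, beside -0.06 for all genes. Positive values were found for 23 of 50 (46.0% of all genes), and 0 were higher in all RMA early than in all control libraries (2.12% of all genes). At day 4, 12 of 50 members were called higher and none lower, against 1.85% of all genes called higher and 0.491% called lower, with a median log2 fold change of 0.66 against -0.29 for all genes. At day 9, 22 of 50 were called higher and none lower, against 2.14% of all genes called higher and 0.521% called lower, with a median of 0.80 against -0.18 for all genes. Positive values were found for 49 of 50 members at both days, where 36.6% and 40.7% of all genes were positive. Unadjusted p values under 0.05 were found for 33 and 37 members, beside 15.9% and 14.0% of all genes. In RMA late, 37 members were higher in all 3 libraries than in all 4 control libraries, as were 9.24% of all genes, and in RMA intermediate 36 were, as were 10.2% of all genes. DESeq2 called 20 members higher at day 4 and 28 at day 9, beside 3.41% and 5.74% of the genes it tested. With a fold change above 2 also required, 7 members were called at day 9 (1.42% of all genes) and 1 at day 4 (1.26%). Of the 12 members called at day 4, 11 were among the 22 called at day 9, and Psmd2, a scaffold subunit of the cap, was the exception. In bulk samples, a different mixture of cells and a different level per cell cannot be told apart.

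Of the immune catalytic subunits, Psmb8 and Psmb9 rose in RMA late. Psmb8 was at 284, 425, 414 and 366 CPM in the 4 control libraries and at 752, 762 and 622 CPM in the 3 RMA late libraries. All RMA late values lay above all control values, and the log2 fold change was 0.94 ± 0.16 (SE), with an adjusted p of 2.10e-03 in edgeR. Psmb9 was at 123, 179, 223 and 171 CPM in control and at 368, 349 and 276 CPM in RMA late. These groups did not overlap, and the log2 fold change was 0.93 ± 0.20 with an adjusted p of 0.0112 in edgeR. Psmb10 was at 158, 246, 241 and 244 CPM in control and at 315, 331 and 241 CPM in RMA late. The lowest RMA late library was level with 3 of the control libraries, and the log2 fold change of 0.41 ± 0.20 was not called (adjusted p = 0.347 in edgeR). At day 4 Psmb8 was at 646, 542 and 610 CPM (0.69 ± 0.16, adjusted p = 0.0230), a call that did not hold when low counts were left unfiltered, without the 4 libraries low in immediate early genes or without any one of 4 of the 7 libraries compared, while Psmb9 (0.62) and Psmb10 (0.35) did not pass in edgeR. Without control replicate 1, or without RMA late replicate 1 or 2, Psmb9 was no longer called, with an adjusted p of up to 0.0706, whereas Psmb8 was called in RMA late in all 9 other settings and all 7 fits without 1 library.

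Of their constitutive counterparts, Psmb6 and Psmb7 rose in RMA late. Psmb5 was at 45.1, 50.1, 53.5 and 51.7 CPM in control and at 111, 97.0 and 60.3 CPM in RMA late. The groups did not overlap but RMA late was spread widely, and the log2 fold change of 0.83 ± 0.26 was not called (adjusted p = 0.0943 in edgeR). Psmb6 was at 109, 157, 148 and 154 CPM in control and at 313, 328 and 223 CPM in RMA late. All RMA late values were higher, with a log2 fold change of 1.02 ± 0.21 and an adjusted p of 6.74e-03 in edgeR. Psmb7 was at 34.6, 45.6, 74.8 and 48.5 CPM in control and at 102, 107 and 74.4 CPM in RMA late. Here the groups touched, since RMA late replicate 3 was just under control replicate 3, and the log2 fold change was 0.89 ± 0.24 with an adjusted p of 0.0478. At day 4 Psmb7 was also called (0.93 ± 0.24, adjusted p = 0.0406 in edgeR), a call that did not hold when low counts were left unfiltered, with the replicate block, without the 4 libraries low in immediate early genes or without any one of 6 of the 7 libraries compared. The late call of Psmb6 was lost without RMA late replicate 2 (adjusted p = 0.0637), and that of Psmb7 without any one of 5 of the 7 libraries and in 5 of 9 other settings.

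**Figure D2:**
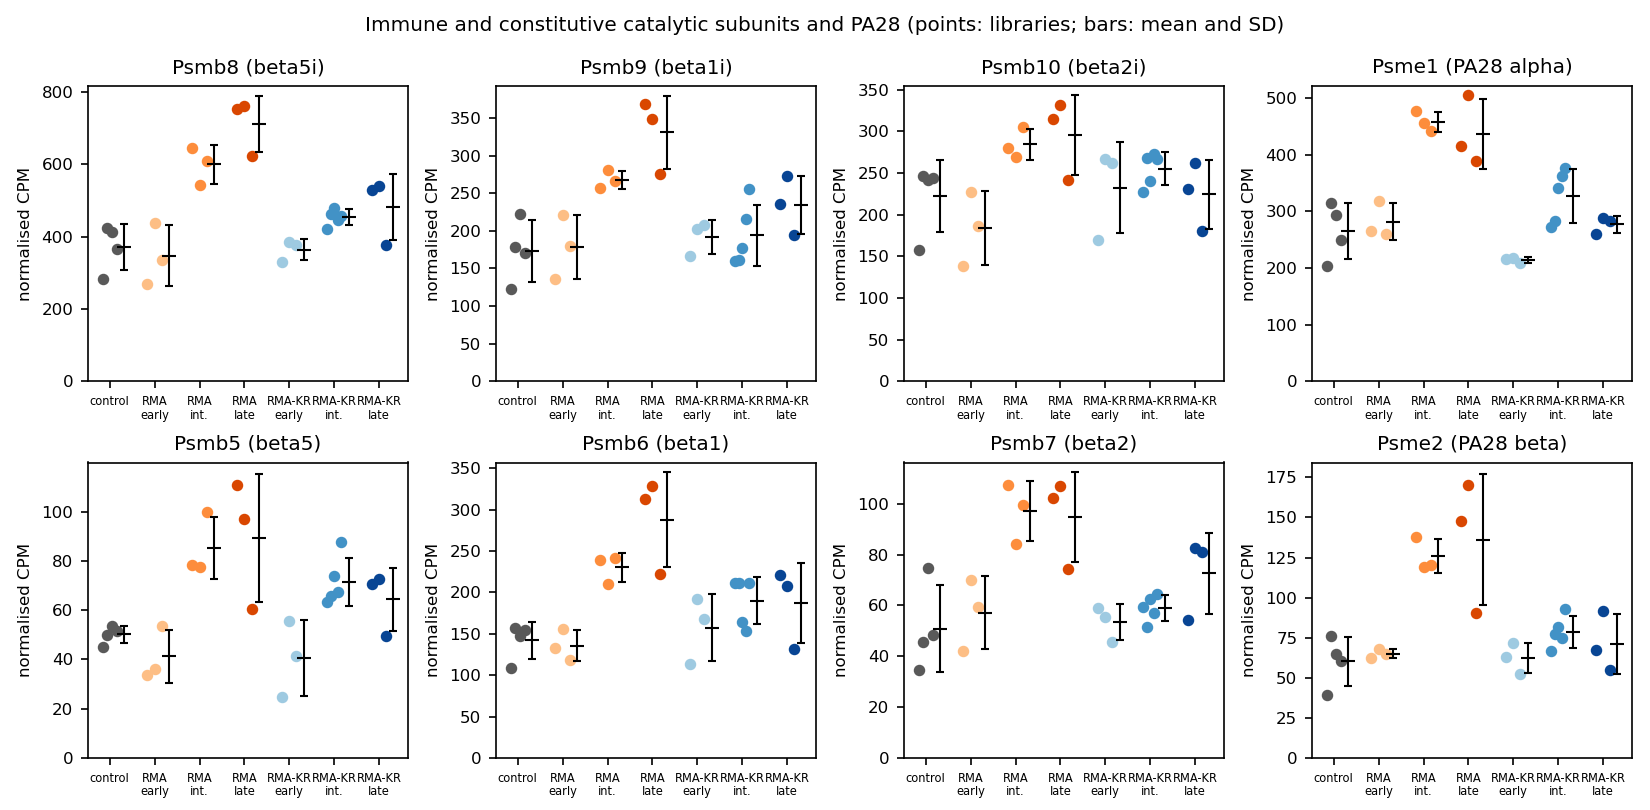
Normalised CPM of the 3 immune catalytic subunits, their 3 constitutive counterparts and the PA28αβ genes in each library (points), with the mean and SD of each group beside them. Psmb8, Psmb9, Psmb6, Psme1 and Psme2 in RMA intermediate and late lie above all control libraries, and the same holds for Psmb5 at a lower level. For Psmb10 and Psmb7, RMA late replicate 3 does not.

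To ask whether the balance between immune and constitutive subunits shifted, the log2 ratio of their counts (0.5 added to each) was taken within each library, where library size has no effect. The ratio of Psmb8 to Psmb5 was 2.65, 3.08, 2.95 and 2.82 in control and 2.76, 2.97 and 3.37 in RMA late. The groups overlapped, and the difference of means was 0.16, with pairwise differences between libraries running from -0.32 to 0.71 (a 94.3% interval for the shift) and an exact 2-sided permutation p of 0.457. The ratio of Psmb9 to Psmb6 was 0.18, 0.18, 0.59 and 0.14 in control and 0.23, 0.09 and 0.31 in RMA late. These also overlapped, with a difference of -0.06, an interval of -0.50 to 0.16 and an exact permutation p of 0.800. The ratio of Psmb10 to Psmb7 was 2.19, 2.43, 1.69 and 2.33 in control, 1.38, 1.67 and 1.62 in RMA intermediate and 1.62, 1.63 and 1.70 in RMA late. All RMA intermediate values were below all control values, a difference of -0.60 (interval -1.05 to -0.01) with an exact permutation p of 0.0571, the smallest that 4 against 3 libraries allow. In RMA late the difference was -0.51 (interval -0.81 to 0.01) with an exact permutation p of 0.114. The log2 ratio of the summed 3 immune to the summed 3 constitutive subunits was 1.59 to 1.75 in control. It was 1.42 to 1.55 in RMA intermediate and 1.52 to 1.56 in RMA-KR late, below all control libraries in both. The other tumor groups overlapped control, with 1.44 to 1.67 in RMA late, and this summed ratio was not tested. No ratio in the 24 tests (3 pairs, 6 tumor groups against control, and RMA against RMA-KR early and late) passed after adjustment, and the smallest adjusted p was 0.762. With these numbers of libraries, no exact p could have passed after adjustment over the 24 tests. A p that misses the threshold does not show that the balance was constant, since intervals for the first pair ran as far as -1.09 (RMA early against RMA-KR early) and 1.08 (RMA-KR early against control).

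**Figure D3:**
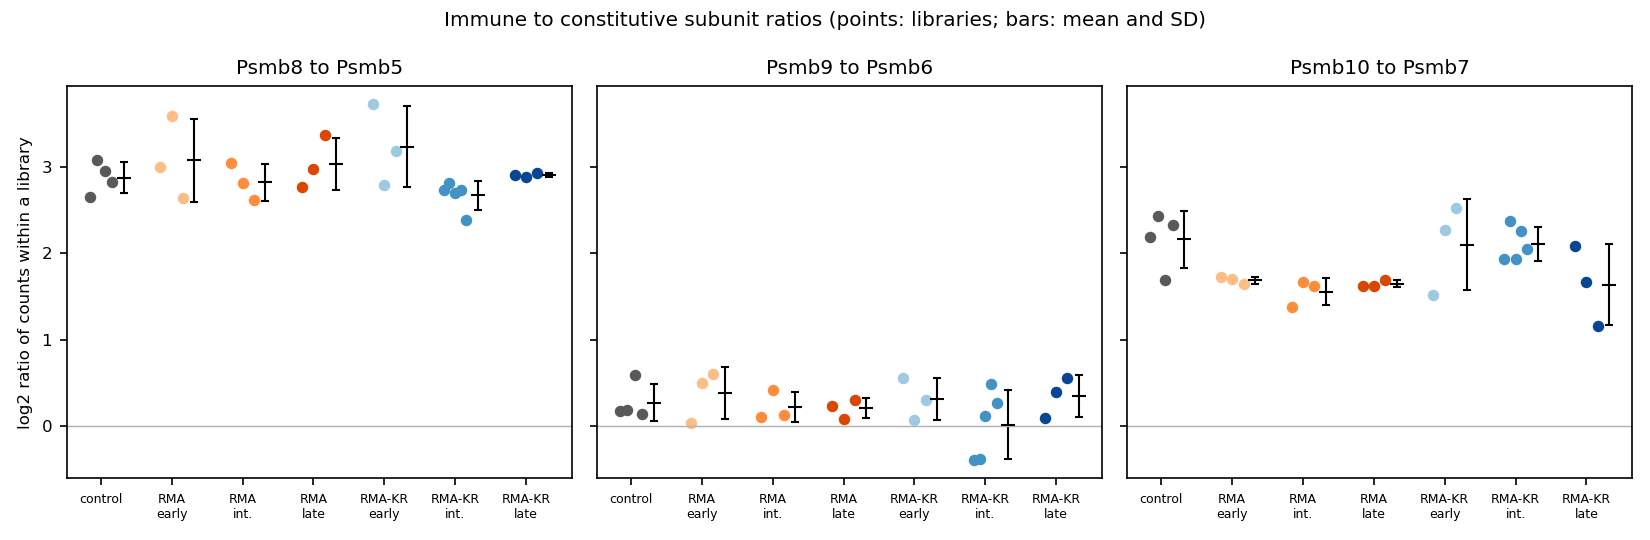
Log2 ratio of the counts of each immune subunit to its constitutive counterpart in each library (points), with the mean and SD of each group. Group means of Psmb8 to Psmb5 run from 2.67 to 3.24 and those of Psmb9 to Psmb6 from 0.02 to 0.38, while means of Psmb10 to Psmb7 are 1.56 to 1.69 in the RMA groups, 1.64 in RMA-KR late and 2.16 in control.

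PA28αβ genes were called higher in RMA at both stages. Psme1 was at 204, 316, 293 and 250 CPM in control, at 477, 456 and 442 CPM in RMA intermediate and at 415, 506 and 388 CPM in RMA late. Neither tumor group overlapped control, and the log2 fold changes were 0.79 ± 0.15 (adjusted p = 5.51e-03 in edgeR) and 0.72 ± 0.15 (adjusted p = 8.90e-03). Psme2 was at 39.4, 76.2, 64.9 and 60.6 CPM in control, at 138, 119 and 120 CPM in RMA intermediate and at 148, 170 and 90.5 CPM in RMA late. Again neither overlapped control, with log2 fold changes of 1.06 ± 0.23 (adjusted p = 0.0124 in edgeR) and 1.17 ± 0.23 (adjusted p = 5.56e-03). Late calls of both genes were lost without RMA late replicate 2, at adjusted p values of 0.0962 and 0.0670. With no filter on low counts, the late call of Psme1 and the intermediate call of Psme2 were also lost. The intermediate call of Psme2 was lost too without control replicate 1 or RMA intermediate replicate 1. Relative to the 11 noncatalytic core subunits, the log2 ratio of Psme1 and Psme2 was -2.25 to -2.06 in control. It was -2.03 to -1.94 in RMA intermediate, above all control libraries. In RMA late it overlapped control with a lower mean (-2.32 against -2.17). RMA-KR early, at -2.65 to -2.30, lay below all control libraries, the other groups overlapped control, and this ratio was not tested.

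The remaining core and the cap followed the same direction. All 4 noncatalytic beta subunits were called in RMA late (median log2 fold change 0.99), as were 4 of 7 alpha subunits (median 0.98), 3 of 6 cap ATPases (median 0.77) and 5 of 12 other cap subunits (median 0.71). Psmb2, a structural subunit, was at 79.5, 124, 139 and 115 CPM in control and at 320, 316 and 196 CPM in RMA late, a log2 fold change of 1.28 ± 0.20 with an adjusted p of 1.04e-03. Psma7 was at 116, 140, 159 and 153 CPM in control and at 408, 399 and 241 CPM in RMA late, a log2 fold change of 1.30 ± 0.23 with an adjusted p of 2.58e-03. In both genes every RMA late library exceeded every control library, with replicate 3 the lowest of its group. Psma4 (1.26), Psma1 (1.06) and Psma2 (0.98) were the other called alpha subunits, and Psma3 (0.42) had the smallest change of that ring. Psmb4 (1.03), Psmb3 (0.95) and Psmb1 (0.78) completed the noncatalytic beta subunits. Of the 7 fits without 1 library, Psmb1 was called in 3, Psmb3 in 4, and Psma2 and Psma4 in 6, while Psma1, Psma7, Psmb2 and Psmb4 were called in all 7. Psmb1 and Psmb3 were also lost with no filter on low counts and with the replicate block. Psmb1 was lost too without the 4 libraries low in immediate early genes.

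Of the cap ATPases, the motor that unfolds substrates, Psmc3 (0.88), Psmc1 (0.87) and Psmc4 (0.83) were called and Psmc6 (0.46) was the lowest. Among the other cap subunits, Psmd13 (0.96), Psmd1 (0.81), Psmd7 (0.80), Psmd14 (0.76, the deubiquitinase of the lid) and Psmd8 (0.76) were called, while Psmd3 (0.27, adjusted p = 0.644) had the lowest value. Of the 7 fits without 1 library, Psmc3 and Psmc1 were called in 1 each, Psmd7, Psmd8 and Psmd14 in 2, Psmc4 in 3, Psmd13 in 4 and Psmd1 in 6. With no filter on low counts, Psmc1, Psmc4, Psmd1, Psmd7, Psmd8 and Psmd14 were not called. Without the 4 libraries low in immediate early genes, these genes other than Psmd1 were not called either. With the replicate block the late call of Psmc3 was lost, together with those of Psmc1, Psmc4, Psmd7, Psmd8 and Psmd14. Psmd13 was at 141, 182, 157 and 162 CPM in control and at 348, 369 and 218 CPM in RMA late, so that the groups were apart. At day 4, Psmd2 (0.81 ± 0.17, adjusted p = 0.0103 in edgeR), Psmd13, Psmd1 and Psmd14 were the called cap genes (Psmd1 and Psmd14 not when low counts stayed in or with the replicate block), and no ATPase was. Reads overlapping other genes could affect some of these values, since 10.1% of the exonic bases of Psmd13 lie in exons of Sirt3. The same holds for 14.7% of those of Psmb8 (Gm20496) and 5.8% of those of Psmb9 (Tap1). For Psmb5 it is 12.1% (Mir686) and for Psmb7 11.8% (Nek6). The use of strand in counting is not given in the sources used here.

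None of the 7 assembly chaperones was called in RMA late, although all had positive values (median 0.47). Their range ran from Psmd5 (0.13) to Psmg2 (0.92 ± 0.45, adjusted p = 0.365), and the SE of Psmg2, Psmg3 and Psmg4 was 0.45 to 0.57 where that of Psmb8 was 0.16. Of the other activators, Psme4, which encodes PA200, was at 63.9, 61.8 and 55.4 CPM in RMA late against 29.9, 20.5, 16.01 and 33.4 CPM in control. The groups were apart, but the log2 fold change of 1.27 ± 0.50 was not called (adjusted p = 0.234). Psme3, which encodes the nuclear activator PA28γ, was at 76.9, 22.5, 29.9 and 48.7 CPM in control and 45.2, 37.2 and 31.0 CPM in RMA late, fully overlapping, and its log2 fold change of -0.23 ± 0.47 was the only negative one. Psmf1, the inhibitor PI31, was at 0.16 ± 0.24.

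Genes matched by name or as a near copy were kept apart. Psmc3ip was at 3.33, 1.64, 4.53 and 6.52 CPM in control, at 21.4, 18.8 and 24.2 CPM in RMA intermediate and at 15.99, 27.1 and 9.88 CPM in RMA late. Neither RMA group overlapped control, but the log2 fold changes of 2.42 and 2.13 ± 0.80 were not called (adjusted p = 0.196 in RMA late), and 21.2% of its exonic bases lie in exons of Mlx. Psme2b had 12 to 120 counts per library, and its reads may be shared with Psme2. Psma8 had 0 to 37 counts and Psmb11 0 to 10 counts per library, so no fold change is given for them.

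RMA late replicate 3 stood below its group, with the lowest value of 46 of the 50 members tested. Control replicate 1 was the lowest control library for 29 of 50. The sum of 16 proliferation genes moved in the same direction, at 915 to 1161 CPM in control, 4869 to 7366 CPM in RMA intermediate, and 5128, 6305 and 3258 CPM in RMA late replicates 1, 2 and 3, and its part in the proteasome result was not tested. Leaving out RMA late replicate 2 left 6 members called, leaving out RMA late replicate 1 left 10, and leaving out control replicates 1 or 4 left 11 or 14. Leaving out RMA late replicate 3 gave 25. For RMA intermediate, 2 members were left without control replicate 1, 4 without control replicate 4 or RMA intermediate replicate 1 or 2, 5 without RMA intermediate replicate 3 and 7 without control replicate 3. The sum of the immediate early genes, given above, was lower in RMA intermediate, RMA late and RMA-KR late than in 3 of the 4 control libraries. Its part was not tested either. Without the 4 libraries low in those genes, 15 of the 22 calls in RMA late and 6 of the 12 in RMA intermediate were kept. With a term for these libraries instead, 20 of 22 and 9 of 12 were kept.

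**Figure D4:**
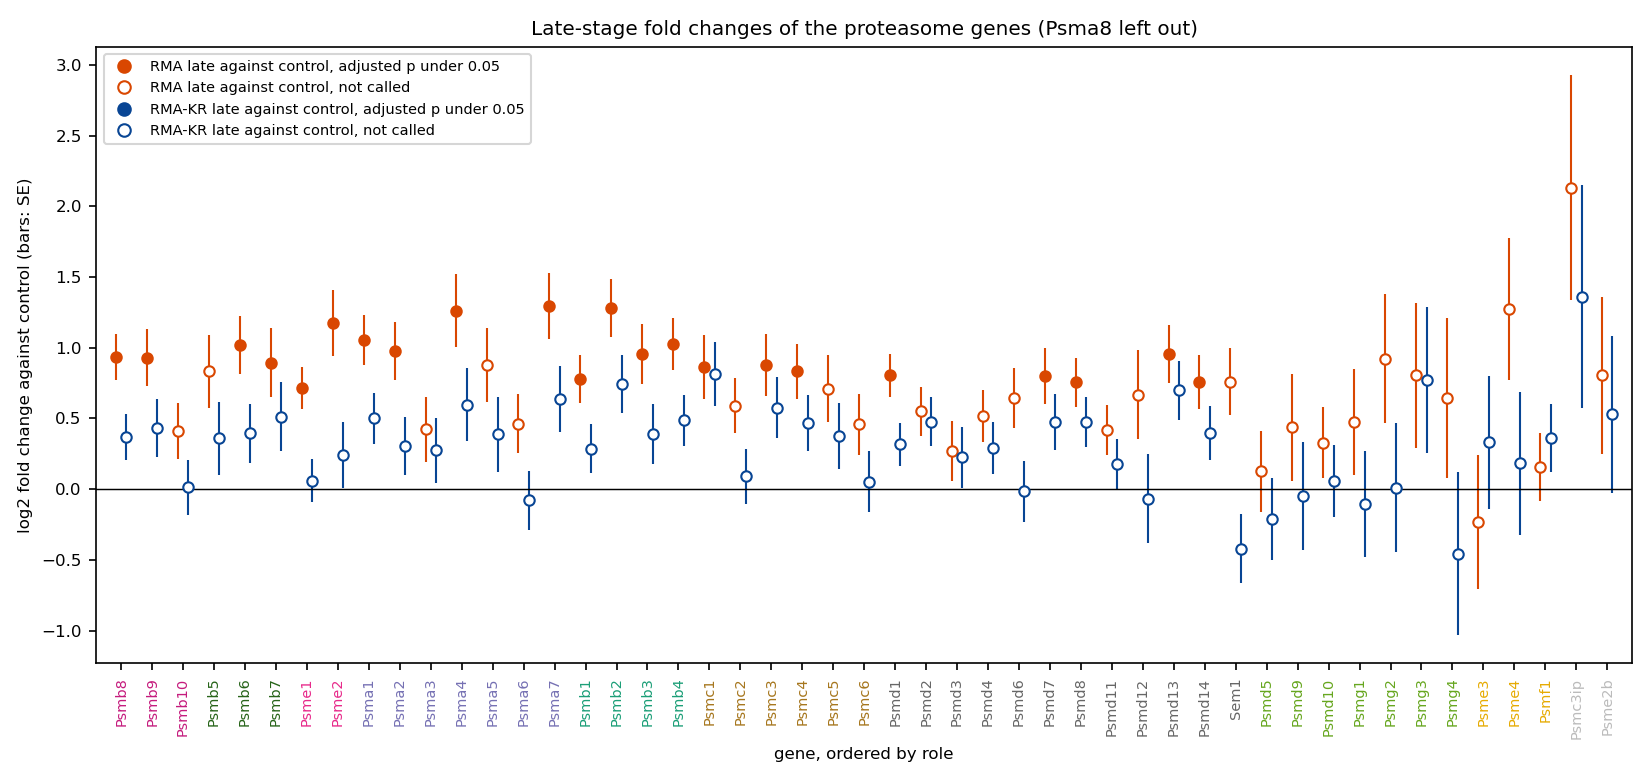
Log2 fold change against control (vertical axis, with SE) of 49 members, ordered by role, in RMA late (orange) and RMA-KR late (blue), with filled points where the edgeR adjusted p was under 0.05. In RMA late 22 points are filled, and in RMA-KR late none.

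RMA-KR was then compared with control in the same fit, so that both tumors share the control libraries. No member was called at any stage by edgeR, where 0%, 0.0175% and 0.889% of all genes were called higher and 0.0994%, 0% and 0.328% lower at days 2, 7 and 14. At day 2 the median log2 fold change was 0.10 with 1 member at an unadjusted p under 0.05 (8.71% of all genes), at day 7 it was 0.32 with 11 members (5.91% of all genes), and at day 14 it was 0.35 with 18 members, of which 17 were positive (14.2% of all genes). The all-gene medians were 0.00, 0.01 and -0.18. Positive values were found for 38, 45 and 41 of 50 members, beside 50.2%, 50.7% and 40.8% of all genes. DESeq2 called 0, 0 and 3 members at the 3 stages, the last being Psmb2, Psmc1 and Psmd13 (0.368%, 0.272% and 2.28% of the genes it tested were called higher at these stages). The lowest edgeR adjusted p at day 14 was 0.0791, for Psmb2, at a log2 fold change of 0.74 ± 0.20. Psmb2 was at 204, 220 and 150 CPM there, all above the highest control value of 139 CPM. Psmc1 (0.81 ± 0.23, adjusted p = 0.0854) was at 155, 186 and 161 CPM against 61.9, 110, 108 and 102 CPM in control, also without overlap. In all, 11 of 50 members were higher in every RMA-KR late than in every control library (5.88% of all genes), as were 4 in RMA-KR early (4.5%) and 5 in RMA-KR intermediate (1.33%). Lower without overlap were 1, 2 and 0 members (1321, 1028 and 221 genes of all).

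The immune genes were not called in RMA-KR late. Psmb8 was at 529, 539 and 376 CPM (log2 fold change 0.37 ± 0.16, adjusted p = 0.330) and Psmb9 at 236, 273 and 195 CPM (0.43 ± 0.20, adjusted p = 0.342), both overlapping control. Psmb10 was at 230, 263 and 181 CPM, with a log2 fold change of 0.01. Psme1 was at 260, 288 and 284 CPM (0.06 ± 0.15) and Psme2 at 67.2, 91.6 and 54.8 CPM (0.24 ± 0.23), again overlapping control. The constitutive Psmb5, Psmb6 and Psmb7 had log2 fold changes of 0.36, 0.40 and 0.51, and none was called. In this group the extreme values by role were Psma7 (0.64) and Psma6 (-0.08) in the alpha ring, Psmb2 and Psmb1 (0.29) among noncatalytic beta subunits, and Psmc1 and Psmc6 (0.05) among ATPases. They were Psmd13 (0.70) and Sem1 (-0.42) among other cap subunits and Psmg3 (0.77) and Psmg4 (-0.46) among chaperones. Sem1, a small acidic cap subunit, was at 49.0, 50.4 and 25.7 CPM in RMA-KR late and at 50.8, 61.2, 57.4 and 53.8 CPM in control, so that every RMA-KR late library lay below every control library and the third replicate was lowest. Proliferation genes summed to 2693 to 5368 CPM in RMA-KR late, and 11 of 16 were called higher, beside 0.889% of all genes.

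At day 7 the 5 RMA-KR intermediate libraries included the 3 that were low in immediate early genes. Psme1 was at 272 and 283 CPM in replicates 1 and 2, and at 341, 363 and 377 CPM in replicates 3, 4 and 5. Psmb9 was at 160 and 162 CPM in replicates 1 and 2 and at 178, 215 and 255 CPM in replicates 3, 4 and 5. Both genes were thus higher in the 3 libraries low in immediate early genes, which also had lower NK cell sums than replicates 1 and 2 (21470 to 22830 against 34850 and 36260 CPM) and higher B cell sums (36.2 to 55.96 against 6.25 and 17.8 CPM). Other members went the opposite way. Psma1 was at 304 and 347 CPM in replicates 1 and 2 and at 282, 226 and 258 CPM in replicates 3, 4 and 5. Psma2 and Psmb4 were also lower in all of replicates 3, 4 and 5, while Psmb8 overlapped. The part of these differences was not tested. Without RMA-KR intermediate replicates 3, 4 and 5 and control replicate 4, the log2 fold change of Psmb9 against control went from 0.16 to -0.10. That of Psmd7 went from 0.11 to -0.07. Psma7 had the smallest p against control, at 0.69 ± 0.21 (adjusted p = 0.532).

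The direct comparison of the tumors asked whether the late difference exceeded the spread between libraries. Between RMA late and RMA-KR late, 48 of 50 members were higher in RMA late (53.0% of all genes) with a median log2 difference of 0.49 against 0.06 for all genes, but 0 were called by edgeR, as were 0% of all genes, and 20 had an unadjusted p under 0.05 (7.31% of all genes). In 14 members the groups did not overlap (5.18% of all genes). DESeq2 called 3 (Sem1, Psme1 and Psme2), beside 0.217% of the genes it tested called higher. With shrinkage of fold changes it called 1 (Sem1), beside 0.0486% of the genes it tested. Sem1 had the smallest p, at 99.8, 118 and 66.1 CPM in RMA late, all above the RMA-KR late values given above, a log2 difference of 1.18 ± 0.26 with an adjusted p of 0.338 in edgeR. Psme1 (0.65 ± 0.16), Psme2 (0.94 ± 0.25) and Psmb8 (0.56 ± 0.18) had the next smallest unadjusted p values, each with an adjusted p of 0.655. Psmg4 (1.103) and Psme4 (1.092) had larger differences than these 3 with larger SE. Psme3 (-0.56) was lower in RMA late, and Psmf1 was the other gene with a value below 0. Psmb8 to Psmb5, Psmb9 to Psmb6 and Psmb10 to Psmb7 ratios differed between these groups by 0.13, -0.14 and 0.01, with intervals of -0.16 to 0.48, -0.48 to 0.22 and -0.47 to 0.54 (90% intervals, 3 against 3 libraries). The exact permutation p values were 0.7, 0.4 and 0.9, where 0.1 is the smallest possible.

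Early and intermediate groups were also compared. At day 2, 0 members were called between RMA and RMA-KR by edgeR (0.181% of all genes were called higher and 0.158% lower) or by DESeq2 (1.74% higher), 17 of 50 were higher in RMA (47.5% of all genes), 3 without overlap (5.56%), and 6 were lower without overlap (1233 of 17097 genes were). An unadjusted p under 0.05 was found for 6 members (12.3% of all genes), of which 1 was higher in RMA, led by Psmc4 (-0.68 ± 0.21, adjusted p = 0.211). Between RMA day 4 and RMA-KR day 7, 0 were called by edgeR (0.591% of all genes were called higher and 0.0526% lower). DESeq2 also called 0 there (1.28% of the genes it tested were called higher). Of the 50, 47 were higher in RMA (37.2% of all genes), 21 without overlap (5.82%), and 1 was lower without overlap (575 of 17097 genes were). In this comparison 18 had an unadjusted p under 0.05 (14.2%), led by Psme1 (0.49 ± 0.14, adjusted p = 0.162 in edgeR). Subtracting the early-to-late change in RMA-KR from that in RMA gave a median log2 value of 0.61 over the members, against 0.12 over all genes. This difference of changes was positive for 47 of 50 members (54.6% of all genes), 18 had an unadjusted p under 0.05 (10.4%), and 0 were called by edgeR (0% of all genes) or DESeq2 (0.487% higher), the smallest adjusted p being 0.330 for Psmc4.

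Within RMA the stages were compared in turn. From early to intermediate, 9 of 50 members were called higher (1.57% of all genes), with a median log2 change of 0.64 against -0.11 for all genes, and 3 of them had a fold change above 2 (1.1%). Psmb2 went from 104, 110 and 82.0 CPM to 219, 227 and 230 CPM, a log2 change of 1.19 ± 0.22 with an adjusted p of 7.55e-03. Psmc4 (1.04 ± 0.21, adjusted p = 0.0121) and Psmb8 (0.79 ± 0.18, adjusted p = 0.0204) came next. Psmb5, at 33.6, 36.2 and 53.7 CPM early and 78.3, 77.3 and 99.6 CPM intermediate, was called as well (1.05 ± 0.28, adjusted p = 0.0490). With no filter on low counts Psmb5 was not called, and with only the groups compared Psmb2 alone was. DESeq2 called 15 (4.02% of the genes it tested), and without the 4 libraries low in immediate early genes 6 were called. Leaving out RMA intermediate replicate 3 left 1 member called, and leaving out RMA intermediate replicate 1 or 2 or RMA early replicate 1 left 2. From intermediate to late, 0 of 50 were called by edgeR (0% of all genes) or DESeq2 (0.184% higher) and 0 had an unadjusted p under 0.05 (4.46% of all genes had), with a median of 0.13. By role the medians there were 0.31 for the alpha subunits, 0.34 for the noncatalytic beta subunits and 0.25 for the immune catalytic subunits. In RMA-KR edgeR called 0 members from early to intermediate (0.45% of all genes were called higher and 0.181% lower) and 0 from intermediate to late (0.263% higher and 0.0643% lower). The lowest adjusted p from its early to its intermediate group was 0.0595, for Psme1 (0.61 ± 0.15), which was at 216, 218 and 209 CPM at day 2, and 7 members had an unadjusted p under 0.05 (13.8%). DESeq2 called 3 (Psme1, Psmb5 and Psme3) there (3.25% of the genes it tested were called higher). From RMA-KR intermediate to late, DESeq2 also called 0 (0.914% higher) and 0 had an unadjusted p under 0.05 (13.2% of all genes had).

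**Figure D5:**
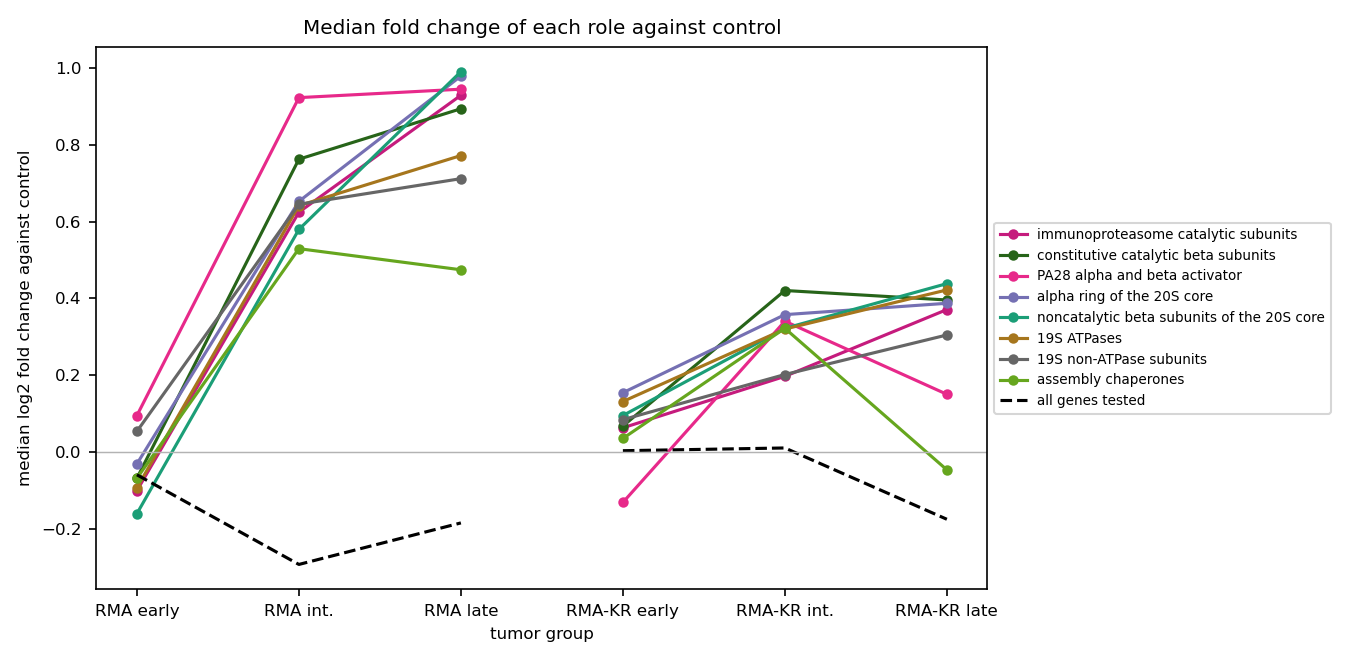
Median log2 fold change against control (vertical axis) of the members of 8 roles in the 6 tumor groups, with the median of all genes tested as a dashed line. In RMA intermediate these 8 lie at or above 0.53, and in RMA-KR late 7 of the 8 lie between 0.15 and 0.44; the other activators and inhibitor, not drawn, had medians of 0.35 and 0.33.

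Other genes of the pathway were read from lists. Of 26 tested proteasome accessory and regulator genes, 2 were called higher in RMA intermediate (1.85% of all genes were). Among them was Pomp, the chaperone that matures the 20S core (0.90 ± 0.24). In RMA late 1 of the 26 was called higher (Pomp), beside 2.14% of all genes, and none was called lower at either stage. Pomp was at 65.6, 82.9, 77.6 and 69.8 CPM in control and at 164, 220 and 124 CPM in RMA late, without overlap, a log2 fold change of 1.19 ± 0.24 with an adjusted p of 6.74e-03. The median of that list in RMA late was -0.04, beside 0.80 for the proteasome genes. Nfe2l1, which encodes the Nrf1 factor known to drive proteasome genes, was not called in RMA late (-0.62 ± 0.41), nor was Nfe2l2 (-0.68 ± 0.24). Of 19 interferon-gamma and antigen processing genes, 5 were called higher in RMA intermediate (1.85% of all genes), among them Tap1, Tapbp, Pdia3 and Irf8. In RMA late 6 were called higher (2.14% of all genes), among them Pdia3, Irf8, Tap1, H2-K1 and B2m. None was called lower, and the medians were 0.37 and 0.46. Positive values were found for 16 and 14 of the 19, beside 36.6% and 40.7% of all genes. Irf1 went the other way, at 301, 341 and 396 CPM in RMA late against 482, 496, 724 and 517 CPM in control. Tap1, the neighbour of Psmb9 and Psmb8, had a log2 fold change of 1.01 ± 0.19 in RMA intermediate and 0.84 ± 0.19 in RMA late. Irf8 changed by 1.11 ± 0.22 and 1.01 ± 0.22. Pdia3, a chaperone of peptide loading, changed by 0.98 ± 0.19 and 0.94 ± 0.19, Tapbp by 0.90 ± 0.17 in RMA intermediate, and H2-K1 (0.51 ± 0.12) and B2m (0.73 ± 0.19) in RMA late. In RMA-KR late 0 of the 19 were called by edgeR (0.889% of all genes were called higher and 0.328% lower), with a median of 0.24. All 16 proliferation genes were called higher in RMA intermediate and 13 in RMA late, beside 1.85% and 2.14% of all genes.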

How the data were processed

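Raw read counts per gene were deposited by the authors for 24 libraries: per the labels and the study's methods, reads were trimmed (cutadapt 1.10), cleared of ribosomal RNA (Bowtie2 2.2.8), aligned to mm10 (STAR 2.5.3a) and counted with HTSeq 0.6.1p1. Of the table's other columns, 48 of normalised per-sample values and 29 of the authors' comparisons (fold changes and p-values) were not used. Here counts were scaled by TMM and tested with edgeR 4.0.16 (quasi-likelihood, robust, 17097 genes kept by filterByExpr, 1 fit over 7 groups, 14 comparisons, Benjamini-Hochberg over all genes, threshold 0.05), in R 4.3.3. DESeq2 1.42.0 was an alternative. Fold changes are log2 with SE = |log2 fold change| divided by the square root of F. The fit was tested on simulated data. CPM values are TMM-normalised. Ratios used 2-sided exact permutation tests (SciPy 1.17.1). Named with values were the immune catalytic and PA28αβ genes with their counterparts, every member called in a late group against control, the 3 smallest p values of each other comparison with calls, the highest and lowest fold change per role in the late comparisons, name-only matches and called genes of the pathway lists, some of which are not reported here. Other genes given values were chosen after their values were seen. Members and lists were chosen with earlier results of these data known. Counts per library (5138651 to 14863500) limit low genes most. Alternatives were other scaling, filters, tools, samples, a replicate block, pseudocounts and leaving out libraries.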

Additional observations from a re-analysis of the deposited data

Results flagged for a closer look

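4 of 46 sets of library values checked (23 quantities in the control and RMA-KR intermediate groups) held a library farther from the rest than Dixon's 95% limit. Chance alone flags about 1 in 20 groups. Psmb10 was 158.2 CPM in control replicate 1, the lowest of 4, where the next was 241.1 CPM. Psmc1 was 61.91 CPM in control replicate 1, with the next at 101.9 CPM. The log2 ratio of Psmb8 to Psmb5 was 2.385 in RMA-KR intermediate replicate 5, the lowest of 5, with the next at 2.698. The log2 ratio of Psmb9 to Psmb6 was 0.591 in control replicate 3, the highest of 4, with the next at 0.1832.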

How the results depend on the processing

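Members called in RMA late against control numbered 22, and the count was 7 with a fold change above 2, 12 with no filter on low counts and 6 to 25 when 1 library was left out. Psma1, Psma7, Psmb2, Psmb4 and Psmb8 were called in all 9 other settings and all 7 fits without 1 library. For RMA intermediate against control (12) it was 1 with a fold change above 2, 4 with no filter, 19 with at least 10 counts in every library, 20 and 21 by DESeq2 without and with a prior on fold changes, 23 with only the groups compared, 6 without the 4 libraries low in immediate early genes (chosen after seeing the data) and 2 to 8 without 1 library. For RMA intermediate against RMA early (9) it was 3, 5 and 1 with a fold change above 2, no filter and only the groups compared, 15 and 15 by DESeq2, and 1 to 7 without 1 library. There, scaling by DESeq2's size factors left 6 of the 9 members called. It changed the split of all genes called from 269 higher and 130 lower to 199 and 185. Counts that were 0 became 2 (at least 10 counts), 3 and 3 (DESeq2) and 0 to 1 (without 1 library, 1 without RMA-KR late replicate 3) in RMA-KR late against control, 3 and 1 (DESeq2) in RMA late against RMA-KR late, and 1 (no filter), 1 (at least 10 counts), 3 and 3 (DESeq2) and 0 to 1 (without 1 library) in RMA-KR intermediate against RMA-KR early. Without the 4 libraries, the fold changes of Psmb9 and Psmd7 in RMA-KR intermediate were -0.10 and -0.074, and the log2 ratio of Psmb9 to Psmb6 there differed from control by -0.71. Without 1 library, the fold change ran from -0.12 to 0.19 for Psmb10 and -0.048 to 0.15 for Psme1 in RMA-KR late against control, and from -0.10 to 0.28 for Psmc1 in RMA late against RMA-KR late. The log2 ratio of Psmb8 to Psmb5 in RMA-KR intermediate against control ran from -0.28 (without control replicate 1, exact permutation p = 0.0357) to -0.13. The cause of these changes was not tested.

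Deviations from the group mean were weakly correlated between most same-numbered libraries: 3 of 64 such pairs were above 0.1 (range -0.118 to 0.202). Whether same-numbered libraries share a mouse cohort or a handling batch was not tested. With the replicate block, 13 members were called in RMA late, 6 in RMA intermediate and 8 in RMA intermediate against RMA early.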
